A study of Mus musculus with 9 samples.

Results

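The C-type lectin receptors of myeloid cells were examined in microglia sorted from the brains of normal mice and of mice with a lesion modelled on neuromyelitis optica (NMO). The set comprised 8 receptor genes, Clec4a1, Clec4a2, Clec4a3, Clec4n, Clec4d, Clec4e, Clec5a and Clec12a, taken by gene symbol from count tables that held 23238 symbols. All 8 were found. Of these, 7 had enough reads to be tested, and Clec4e did not pass the filter on low counts.

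C-type lectin receptors are membrane proteins with which macrophages, dendritic cells, neutrophils and microglia sense sugars and lipids of microbes and molecules released by dying cells. Clec4e (Mincle), Clec4d (MCL) and Clec4n (Dectin-2) signal through the Fc receptor gamma chain, encoded by Fcer1g, and Clec5a (MDL-1) signals through the adaptor DAP12, encoded by Tyrobp. Both adaptors recruit the kinase Syk, and the route through Card9, Bcl10 and Malt1 then leads to NF-kB. Clec4a2 (DCIR) and Clec12a (MICL) carry an inhibitory motif in the cytoplasm that recruits phosphatases such as those encoded by Ptpn6 and Inpp5d.

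The cells were positive for CD45, CD11b and P2ry12 and were collected on day 1. The 9 libraries, 3 per group, were each made from 3 pooled mice. All mice were wild-type females of the C57BL/6N strain, 12 weeks old when the model was set up. Normal mice were untreated. NMO mice were injected in the striatum with IgG of NMO patients and with human complement, and NMO+CL mice were also given clodronate liposomes in the abdomen 6 hours earlier to deplete monocytes. Controls with other IgG or with empty liposomes were not analysed here, so that the antibody and the needle, or clodronate and the liposome, cannot be told apart. NMO was in addition the reference of one comparison and the treated group of another, so the 3 comparisons shared libraries.

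Libraries held 5788234 to 7837219 counts. All 10 microglial markers of the list used here, Tmem119 and P2ry12 among them, were detected in every library, and their summed level was 34170 to 38815 CPM (counts scaled to a library size of 1000000) for Normal, 29414 to 34234 for NMO and 19906 to 27559 for NMO+CL. Of these 10 markers, 0 were called higher in any comparison. Those called lower were 1 in NMO against Normal (Siglech, edgeR adjusted p = 0.0287), 4 when NMO+CL was set against NMO, and 7 between NMO+CL and Normal, where 0.0244%, 1.07% and 4.43% of all tested genes were called lower. Rn45s, the ribosomal RNA precursor, took 15.98% to 30.98% of the counts of a library. P2ry12, on which the cells were sorted, averaged 2443, 1648 and 353 CPM in the same order, a log2 fold change of -2.79 in NMO+CL against Normal (edgeR adjusted p = 4.6e-07), and the part of this in the receptor levels was not tested. Cd3e, which defines T cells, was at 0 in all 9 libraries. Markers of neutrophils and monocytes were present and are given beside the rare receptors. In sorted bulk cells, fewer cells of one type and less RNA per cell cannot be told apart.

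All 8 genes lay on mouse chromosome 6. In the GRCm38 build with the GENCODE M21 annotation, 6 of them fell within 368 kb, between the start of Clec4a1 and the end of Clec4e (chr6:122921848-123289870). Their order was Clec4a1, Clec4a3, Clec4a2, Clec4n, Clec4d and Clec4e, all on the plus strand except Clec4e. Clec5a stood far from this cluster at chr6:40574894-40585821 on the minus strand, and Clec12a at chr6:129342691-129365303 on the plus strand. No exon of another gene overlapped their exons.

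Sequence from RefSeq (GRCm38.p6) for the 250 bases before the start site was found for 7 of the 8 genes. For Clec4a2 and Clec12a the RefSeq start site lay inside the gene as annotated in GENCODE M21, which starts at chr6:123106428 for Clec4a2. The sequence is shown for Clec5a, the most abundant receptor, and for Clec4a2, whose Normal libraries were apart from the injected ones. Clec4d and Clec4e, which were at 0 in every Normal library, are shown too. Each is written 5′ to 3′ on the strand of its gene, and capitals mark matches on either strand to TTNNGNAA, a form of the C/EBP motif, to GAGGAA, the core bound by PU.1, to TGANTCA, the AP-1 motif, or to GGGNNNTTC, a short NF-kB-like pattern.
Clec5a, chr6:40585806-40586055, minus strand: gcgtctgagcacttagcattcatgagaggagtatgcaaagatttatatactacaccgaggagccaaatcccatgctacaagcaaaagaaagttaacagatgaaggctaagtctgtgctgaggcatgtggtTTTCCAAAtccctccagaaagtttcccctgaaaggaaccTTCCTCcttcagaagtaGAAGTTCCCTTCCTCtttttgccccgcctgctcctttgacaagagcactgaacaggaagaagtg
Clec4a2, chr6:123122440-123122689, plus strand: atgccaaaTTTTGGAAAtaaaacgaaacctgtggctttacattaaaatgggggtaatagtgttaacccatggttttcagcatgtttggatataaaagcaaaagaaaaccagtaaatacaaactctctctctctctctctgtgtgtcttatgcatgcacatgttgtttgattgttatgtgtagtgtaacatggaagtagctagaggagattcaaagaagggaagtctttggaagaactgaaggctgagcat
Clec4d, chr6:123261857-123262106, plus strand: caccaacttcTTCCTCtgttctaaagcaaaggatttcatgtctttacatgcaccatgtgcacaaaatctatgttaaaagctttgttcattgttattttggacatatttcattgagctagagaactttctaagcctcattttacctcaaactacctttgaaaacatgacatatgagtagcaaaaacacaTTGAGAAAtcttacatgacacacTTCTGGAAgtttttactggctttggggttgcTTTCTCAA
Clec4e, chr6:123289872-123290121, minus strand: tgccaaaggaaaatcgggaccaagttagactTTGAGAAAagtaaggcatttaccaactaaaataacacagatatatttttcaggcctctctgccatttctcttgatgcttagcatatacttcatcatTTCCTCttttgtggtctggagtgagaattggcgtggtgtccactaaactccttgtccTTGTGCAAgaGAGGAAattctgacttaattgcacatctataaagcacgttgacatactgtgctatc

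The Clec5a window held 1 match to the C/EBP form, 2 to the PU.1 core and 1 to the NF-kB-like pattern, and the last of these ran directly into a PU.1 core. Clec4d held 3 C/EBP matches and 1 PU.1 core, and Clec4e held 2 of each. Clec4a2 held 2 overlapping C/EBP matches and no PU.1 core. The window of Clec12a, not printed, held 3 C/EBP matches, 2 of them on opposite strands at the same bases, with 2 PU.1 cores and the single AP-1 match found in the set. Clec4a1 and Clec4a3, also not printed, held 0 C/EBP matches. Clec4a1 held 2 PU.1 cores. Clec4a3 had a window at chr6:122952265-122952514 without a match to any pattern, and another at chr6:122952394-122952643 with 1 PU.1 core. These are short patterns. Among 32851 RefSeq promoter windows of the same length, 36.8% held the C/EBP form, 23.3% the PU.1 core, 6.75% the AP-1 motif and 11.8% the NF-kB-like pattern.

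Since these libraries read only the 3′ ends of transcripts, counts were compared between genes without division by length. Clec5a, Clec4a2 and Clec4a3 supplied nearly all receptor reads in every group, Clec4a1 followed, and Clec4n, Clec4d, Clec4e and Clec12a were close to the detection limit. In Normal, mean CPM ranked Clec5a at percentile 91.5 of the 12292 tested genes, Clec4a2 at 82.5, Clec4a3 at 81.0 and Clec4a1 at 31.5. The libraries of Clec4a2 and Clec4a3 overlapped in each group, and those of the other neighbours in this order did not. The summed level of all 8 genes came to 294 ± 30.7 CPM (Normal), 317 ± 31.0 (NMO) and 315 ± 20.4 (NMO+CL; mean ± SD, n = 3), and these ranges overlapped. The biological coefficient of variation, the relative spread between libraries beyond counting error, was 0.185 for Clec5a, 0.209 for Clec4a2 and 0.233 for Clec4a3, below the median of 0.377 over tested genes. It was 1.27 for Clec4d, 1.47 for Clec12a and 1.495 for Clec4n.

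**Figure D1:**
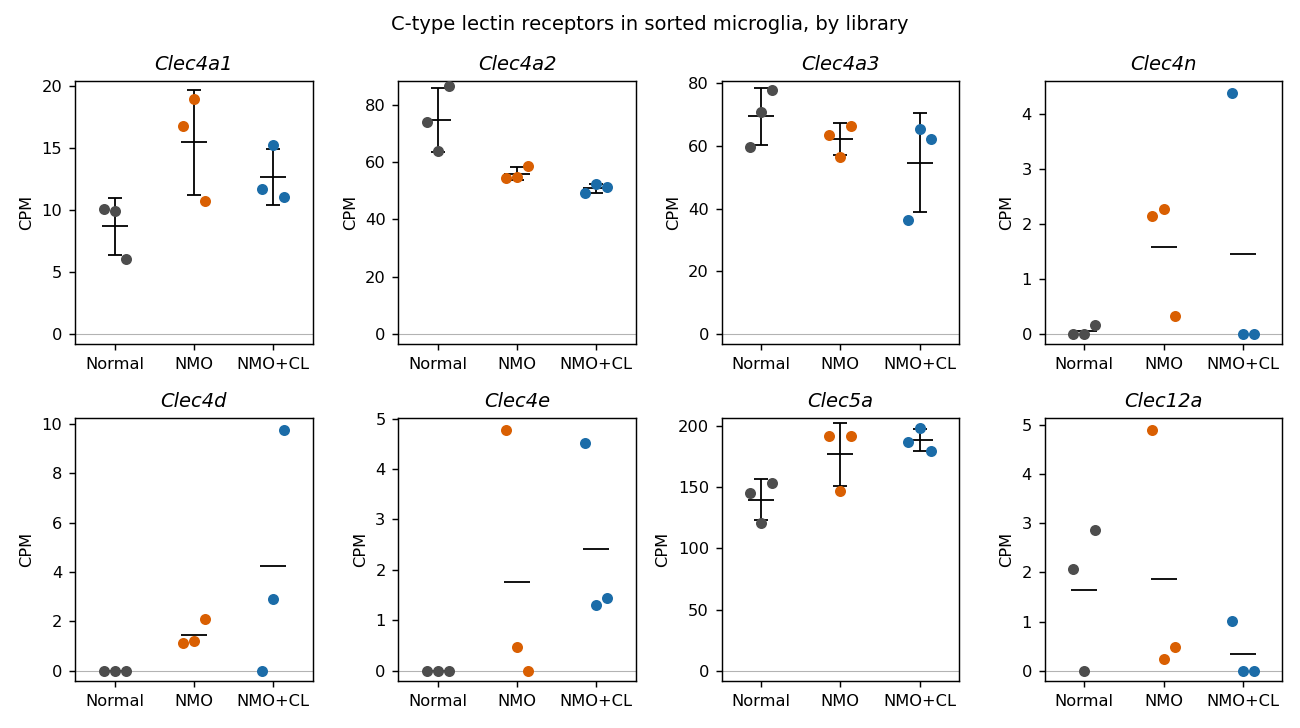
Level of each receptor gene in CPM (vertical axes, each with its own scale) in the 9 libraries, grouped as Normal, NMO and NMO+CL. Points are libraries, horizontal marks are group means and bars are the SD of 3 libraries, left out for the 4 rarely detected genes. Clec5a lies between 121 and 198 CPM in all libraries, and Clec4d and Clec4e lie at 0 in all Normal libraries.

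None of the 7 tested receptors passed the edgeR test at an adjusted p of 0.05 in any comparison. Of all tested genes, 0.472% were called higher and 0.0244% lower when NMO was compared with Normal. The percentages were 0.529% and 1.07% for NMO+CL compared with NMO, and 4.79% and 4.43% for NMO+CL compared with Normal. With so few calls among all genes, 0 of 7 does not set the receptors apart. At an unadjusted p under 0.05, edgeR gave 1 receptor in the first comparison, 0 in the second and 3 in the last, beside 9.51%, 12.4% and 22.3% of all tested genes. Limma-voom called 0 receptors in each comparison, and DESeq2 called Clec4d alone, higher with NMO+CL than in Normal.

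Clec5a, which couples to DAP12 and drives inflammatory responses of myeloid cells, was the most abundant receptor in every library. It measured 145, 121 and 153 CPM in the Normal libraries, 192, 147 and 192 in the NMO libraries, and 187, 198 and 180 in the NMO+CL libraries. All NMO+CL libraries were above all Normal libraries, while NMO replicate 2 lay within the Normal range. The log2 fold change was 0.34 ± 0.19 (SE) in NMO against Normal (edgeR adjusted p = 0.634). It was 0.43 ± 0.19 in NMO+CL against Normal, with an unadjusted p of 0.0384 and an adjusted p of 0.192. Between NMO+CL and NMO it was 0.09, with a 95% interval of -0.31 to 0.49.

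Clec4a2, the inhibitory receptor of the DCIR family, measured 73.8, 64.0 and 86.3 CPM in Normal, 54.3, 54.7 and 58.4 in NMO, and 49.0, 52.2 and 51.2 in NMO+CL. The 3 groups did not overlap, with Normal highest and NMO+CL lowest. The log2 fold change was -0.42 ± 0.23 (SE) in NMO against Normal (edgeR adjusted p = 0.608) and -0.56 ± 0.23 in NMO+CL against Normal, where the unadjusted p was 0.0253 and the adjusted p 0.148. The last 500 bases of the Clec4a2 transcript were 96.3% identical to Clec4b1 over 427 bases, and reads that align to several places may have been counted at more than one, so the split between these genes is uncertain. Clec4b1 itself had 6 to 45 counts per library, against 320 to 513 for Clec4a2.

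Clec4a3, a close relative in the same family, measured 59.8, 70.7 and 77.9 CPM in Normal, 63.5, 56.6 and 66.4 in NMO, and 36.5, 65.3 and 62.1 in NMO+CL. The groups overlapped, and NMO+CL replicate 1 was the lowest library. Its log2 fold changes were -0.16 in NMO against Normal, with a 95% interval of -0.70 to 0.38, and -0.35 in NMO+CL against Normal, with an interval of -0.89 to 0.19. Between NMO+CL and NMO the value was -0.19, and without NMO+CL replicate 1 it was 0.04. The 3′ end of Clec4a3 was closest to that of Clec4a4, with 89.1% identity over 128 bases, and matched Clec4b2 at 87.3% over 134 bases and Clec4a2 at 83.1% over 130.

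Clec4a1, the first gene of the cluster, was the least abundant of the 3 DCIR genes in the set. It measured 10.04, 9.93 and 6.06 CPM in Normal, 16.7, 18.9 and 10.7 in NMO, and 11.7, 15.2 and 11.05 in NMO+CL. Every injected library was above every Normal library, though NMO replicate 3 exceeded the highest Normal library only slightly. Its log2 fold change was 0.83 ± 0.48 (SE) in NMO against Normal (edgeR adjusted p = 0.639) and 0.54 ± 0.48 in NMO+CL against Normal (adjusted p = 0.6002). No other transcript matched its 3′ end over a read length of 75 bases or more.

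**Figure D2:**
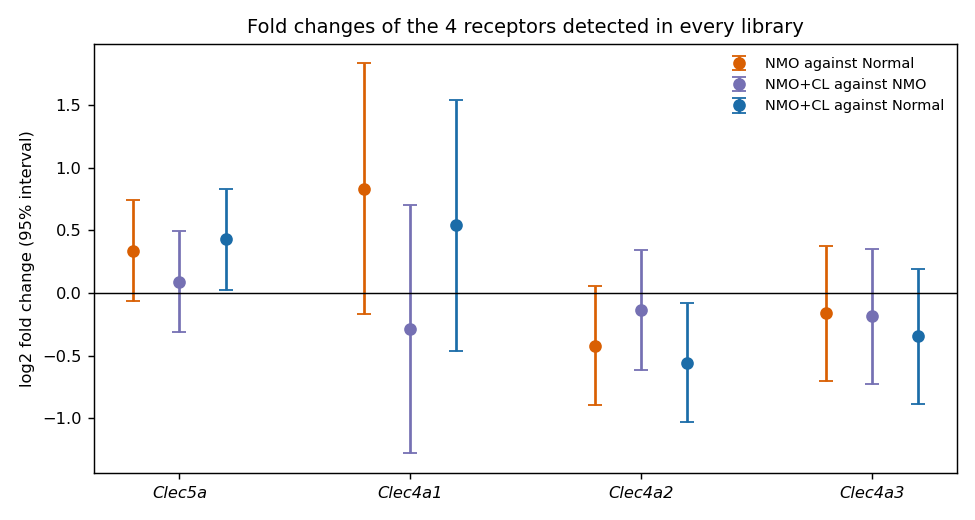
Log2 fold change (vertical axis) of Clec5a, Clec4a1, Clec4a2 and Clec4a3 in the 3 comparisons, with 95% intervals from the edgeR fit that are not adjusted for the number of genes. The intervals leave out 0 for Clec5a and Clec4a2 in NMO+CL against Normal, and include it in the other 10 cases.

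Shares of the summed receptor CPM are given as a description. Clec5a supplied 47.5% ± 2.21 of the summed CPM in Normal mice, 55.6% ± 3.00 after injection alone and 59.9% ± 3.38 after injection with clodronate (mean ± SD, n = 3). Its share was 45.6% to 49.9% in the Normal libraries and 52.3% to 63.6% in the injected ones. Clec4a2 supplied 25.3% ± 1.18, 17.7% ± 1.71 and 16.2% ± 0.549 in the same order, and its share was 24.1% to 26.4% in Normal and 15.6% to 19.4% in injected mice. Clec4a3 supplied 23.7%, 19.6% and 17.2%, and its share was 20.5% to 26.6% in Normal and 12.4% to 20.1% in injected mice. In Clec5a, Clec4a2 and Clec4a3 alike, the shares in the Normal libraries stood apart, and the NMO and NMO+CL libraries overlapped. Clec4a1 supplied 3.01%, 4.96% and 4.003%, and its Normal libraries overlapped both injected groups. The shares were calculated after the separate levels were known and were not tested.

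The remaining receptors of the cluster, Clec4n, Clec4d and Clec4e, lie next to each other at its distal end and were almost undetected in Normal. Together they had 1 count in the 3 Normal libraries, 112 in NMO and 157 in NMO+CL. A library with 0 counts allows up to 3 at 95% confidence, for counting error only. On CPM, the sum of these genes averaged 0.0561 ± 0.0971 (Normal), 4.80 ± 2.92 (NMO) and 8.11 ± 3.57 (NMO+CL; SD, n = 3). The genes were put together because they were almost undetected in Normal, so this sum is a description. Which of the genes was detected varied from library to library.

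Clec4d, the partner of Mincle, had 0 counts in each Normal library, 9, 10 and 13 in the NMO libraries, and 0, 18 and 61 in NMO+CL. NMO+CL replicate 1 thus resembled Normal, and NMO+CL replicate 3 held more counts than the other 8 libraries together. Against a floor of 3 counts per Normal library, the observed mean CPM was 3.07 times the floor in NMO and 8.84 times in NMO+CL. The floor allows for counting error in Normal only, and these ratios leave out the spread between injected libraries. Without NMO replicate 3 the NMO ratio was 2.44. The edgeR test of NMO against Normal gave an unadjusted p of 0.0206 and an adjusted p of 0.409. Its test of NMO+CL against Normal gave an unadjusted p of 0.00756 and an adjusted p of 0.0681. Over 17 alternatives that adjusted p ran from 0.00526 (DESeq2) to 0.310. In 3 of them the gene was called, among them edgeR with the low replicate 1 of NMO+CL omitted (0.0341). NMO+CL replicate 3 carried the ratio of its group to the floor, which was 3.05 without that library. Clec4d passed the filter on low counts only through the injected libraries, so its p-values against Normal describe a gene that was kept because it was high there and are no support for the difference. At the thresholds the study used, which ask for 1.5-fold and a raw p under 0.05, Clec4d was the sole receptor that passed, higher in NMO and in NMO+CL than in Normal. Those thresholds were passed by 5.20% of tested genes upward and 2.77% downward between NMO and Normal, by 4.09% and 6.65% between NMO+CL and NMO, and by 9.90% and 10.2% between NMO+CL and Normal.

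Clec4e, the receptor Mincle, had 0 counts in each Normal library, 38, 4 and 0 in NMO, and 31, 8 and 9 in NMO+CL. All 3 NMO+CL libraries were above Normal, whereas NMO replicate 3 was at 0 too. The observed mean CPM was 3.66 times the floor of Normal in NMO and 5.06 times in NMO+CL, again without the spread between injected libraries. Replicate 1 carried both ratios. Without it the NMO mean was 0.239 CPM, under the floor of 0.478, and the ratio in NMO+CL was 2.86. When the filter on low counts was removed, the edgeR adjusted p was 0.377 in the first of these comparisons and 0.111 in the second.

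Clec4n, which encodes Dectin-2, a receptor for fungal mannans, had 0, 0 and 1 count in Normal, 17, 19 and 2 in NMO, and 30, 0 and 0 in NMO+CL. NMO+CL replicate 1, which held no Clec4d, held all the Clec4n reads of its group. Summed over libraries, its 38 counts in NMO and 1 in Normal gave a ratio of 31.8 after scaling for depth, with an exact 95% interval of 5.37 to 1288 for counting error only (edgeR adjusted p = 0.623). The 30 counts of NMO+CL gave a ratio of 29.4 to Normal, with an interval of 4.88 to 1198 (adjusted p = 0.331). This rested on replicate 1, and without that library the fitted log2 fold change was -1.97.

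Clec12a, an inhibitory receptor for uric acid crystals, had 13, 0 and 17 counts in Normal, 39, 2 and 3 in NMO, and 7, 0 and 0 in NMO+CL. It was the rare receptor that was present in Normal, and its groups overlapped. The log2 fold change was 0.19 in NMO against Normal, with a 95% interval of -4.00 to 4.38, and became -2.14 when NMO replicate 1 was left out. Between NMO+CL and NMO it was -2.38, with an interval of -6.85 to 2.09, and became -0.05 without NMO replicate 1 and -6.67 without NMO+CL replicate 1. The spread between its libraries exceeded counting error.

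Along the cluster, detection in Normal changed at one place. Clec4a1, Clec4a3, Clec4a4, Clec4b1 and Clec4a2, the 5 genes of the proximal side, had 9 to 513 counts in each Normal library. Because of the 96.3% identity with the end of Clec4a2, the 9 to 24 Normal counts of Clec4b1 may include Clec4a2 reads, so its detection is uncertain. Clec4b2, the next gene, had 0 counts in all 9 libraries, and Clec4n, Clec4d and Clec4e followed it with 0 or 1 count per Normal library. The non-member genes Clec4a4, Clec4b1 and Clec4b2 belong to the same family and are given for their position alone. Clec4a4 and Clec4b1 were tested, and neither was called in any comparison.

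**Figure D3:**
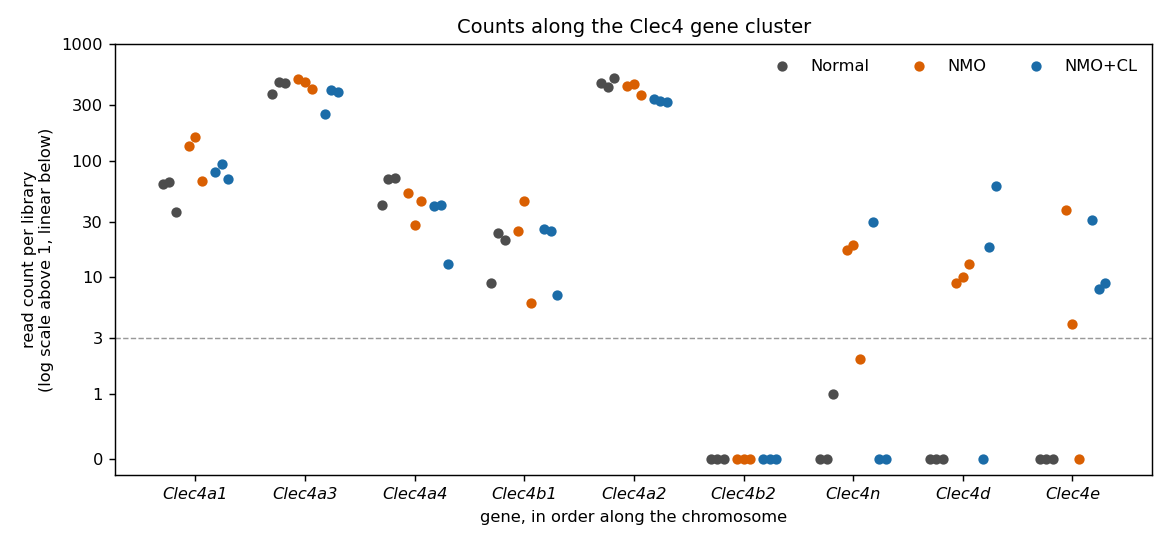
Read counts per library (vertical axis, log scale above 1 and linear below) of the 9 Clec4 genes of the cluster in chromosomal order, coloured by group. The dashed line marks 3 counts. The Normal libraries hold 9 to 513 counts in the first 5 genes and 0 or 1 count in the last 4.

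Levels of markers for other cells were set beside the rare receptors, because neutrophils and monocytes also express them. The 10 neutrophil markers summed to 101 to 585 CPM in Normal libraries, 156 to 482 in NMO libraries and 299 to 1368 in NMO+CL libraries, with 9 or 10 of them detected in each library and S100a8 and S100a9 in all. These last 2 supplied 504 and 611 of the 1368 CPM in NMO+CL replicate 1, whereas Csf3r measured 49.2 to 81.8, 53.5 to 98.0 and 24.98 to 53.5 CPM in the 3 groups and was not called. The 10 monocyte markers summed to 38.0 to 66.0, 43.7 to 85.2 and 62.8 to 117 CPM, with 6 to 10 detected. Ly6c2, which defines inflammatory monocytes, had 30, 0 and 2 counts in the Normal libraries and 15 to 44 in the injected ones. Ccr2, their chemokine receptor, had 24 to 113 counts in Normal, 56 to 156 in NMO and 11 to 59 in NMO+CL. Fn1 was the monocyte marker called, at 4.41 ± 2.83, 6.97 ± 3.83 and 24.2 ± 6.92 CPM (mean ± SD, n = 3), a log2 fold change of 2.45 in NMO+CL against Normal (edgeR adjusted p = 0.0218). Chil3 measured 5.33 ± 6.08, 8.32 ± 1.92 and 24.9 ± 17.8 CPM and was not called. Normal replicate 1 had 585 CPM of neutrophil markers, more than any NMO library, and 66.0 CPM of monocyte markers, and it had 0 counts of Clec4n, Clec4d and Clec4e. NMO+CL replicate 1 had the most neutrophil and monocyte marker reads and held 30 counts of Clec4n, 31 of Clec4e and 0 of Clec4d. NMO+CL replicate 3, which had the most Clec4d reads, had 532 CPM of neutrophil markers. Border macrophage markers summed to 308 to 480, 215 to 365 and 435 to 690 CPM in the 3 groups, and Cbr2 and Stab1 supplied most of this (395 and 278 of 690 in NMO+CL replicate 3). Stab1 was called higher in NMO+CL against Normal, by 0.76 on the log2 scale (edgeR adjusted p = 0.0360), and Cbr2 had 0 counts in NMO replicate 2. Mrc1 ranged from 10.99 to 20.4, 8.62 to 14.6 and 7.85 to 18.1 CPM, and Cd163 had 0 counts in every injected library. Dendritic cell markers summed to 21.7 to 42.0 CPM over all libraries, lymphocyte markers to 0.961 to 7.17, and astrocyte and oligodendrocyte markers to 4.64 to 57.0. Their part in the receptor levels was not tested.

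**Figure D4:**
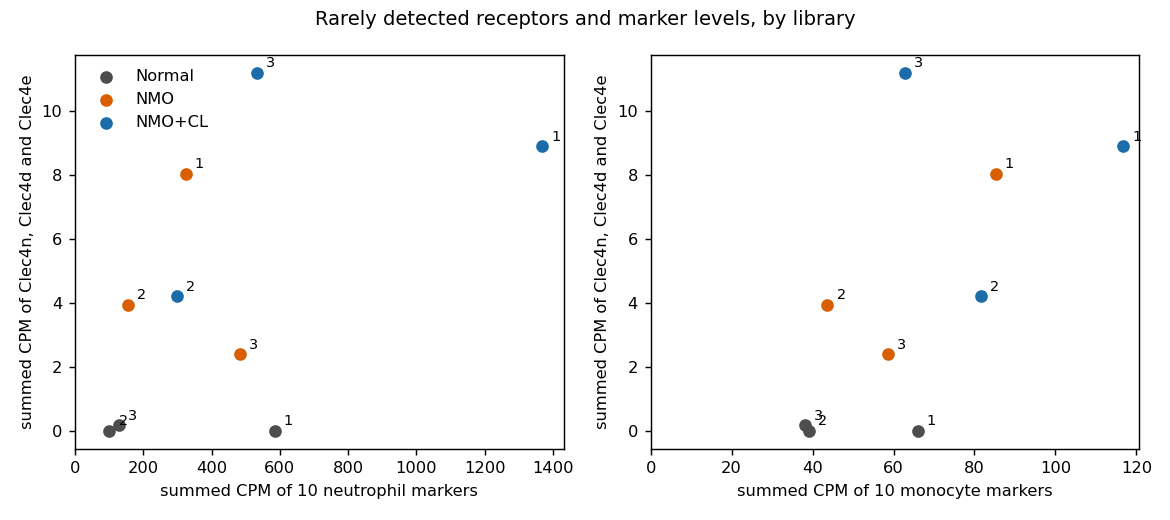
Summed CPM of Clec4n, Clec4d and Clec4e (vertical axes) against the summed CPM of 10 neutrophil markers (left) and 10 monocyte markers (right) in the 9 libraries, with replicate numbers beside the points. Normal replicate 1 lies at 0 on the vertical axis with 585 CPM of neutrophil markers, and NMO replicate 2 at 3.95 with 156.

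The proteins that the receptors work with were then examined, from lists chosen by function. Both adaptors were abundant and similar in all groups. In the order Normal, NMO and NMO+CL, Fcer1g measured 812 ± 103, 799 ± 134 and 899 ± 87.7 CPM, and Tyrobp 621 ± 125, 631 ± 78.0 and 635 ± 177 (mean ± SD, n = 3). The 95% interval of the log2 fold change in NMO+CL against Normal was -0.22 to 0.52 for Fcer1g and -0.42 to 0.48 for Tyrobp. Syk measured 117 ± 17.3, 92.3 ± 5.49 and 120 ± 10.2 CPM, and Card9 was scarce at 6.67 ± 2.87, 7.57 ± 3.35 and 6.10 ± 5.07 CPM. None of these 4 genes was called in any comparison.

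Among the 22 adaptors and kinases reported, all tested, 0 were called in NMO against Normal by edgeR, DESeq2 or limma-voom. Of all tested genes, edgeR called 0.472% higher and 0.0244% lower there. An unadjusted p under 0.05 in edgeR was found for 1, Lyn, in NMO against Normal. It was found for 6 in NMO+CL against NMO and for 6 in NMO+CL against Normal. Such a p was held by 9.51%, 12.4% and 22.3% of all tested genes. When NMO+CL was set against NMO, 0 rose and 1 fell, and against Normal 3 of the 22 fell and 0 rose (1, Fgr, with DESeq2). Of all tested genes, 1.07% were called lower in the former, and 4.79% higher and 4.43% lower in the latter. The gene that fell in both was Blnk, an adaptor that links Syk to phospholipase C gamma, at 184 ± 23.3, 144 ± 28.7 and 41.3 ± 21.1 CPM in the 3 groups (mean ± SD, n = 3). Its log2 fold change was -1.81 ± 0.29 (SE) against NMO (edgeR adjusted p = 0.00415, and 0.0504 without NMO+CL replicate 2) and -2.16 ± 0.29 against Normal (adjusted p = 0.000181). Bcl10, the scaffold downstream of Card9, went from 51.2 ± 6.43 CPM in Normal to 20.9 ± 4.74 in NMO+CL, a log2 fold change of -1.29 (adjusted p = 0.00795). Prkcd, the kinase that phosphorylates Card9, fell by 0.90 (adjusted p = 0.0161), and the call was lost when Normal replicate 3 (adjusted p = 0.0886) or replicate 2 (0.0662) or 3 (0.0537) of NMO+CL was omitted. The median log2 fold change of the list was 0.02, -0.13 and -0.13 in the 3 comparisons, beside -0.01, -0.005 and -0.01 over all tested genes.

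On the inhibitory side, 0 of 6 genes were called in any comparison by edgeR, DESeq2 or limma-voom, and 0 had an unadjusted p under 0.05 in edgeR. Dok2 had such a p with limma-voom in NMO+CL against NMO, and with DESeq2 and limma-voom in NMO+CL against Normal. It measured 0.785 ± 1.36, 2.24 ± 2.56 and 7.83 ± 4.21 CPM in the 3 groups (mean ± SD, n = 3). Ptpn6 measured 324 ± 1.23, 357 ± 21.9 and 340 ± 24.2 CPM, and Inpp5d 425 ± 37.1, 398 ± 53.2 and 363 ± 95.1 (mean ± SD, n = 3). The median log2 fold change of the list was 0.24, -0.08 and 0.17. Of 27 other C-type lectin receptors, 11 were tested and 0 were called in any comparison by the same 3 tools, and edgeR gave 1, 0 and 1 of them an unadjusted p under 0.05. Of all tested genes, 9.51%, 12.4% and 22.3% had such a p, and 0.0244% to 4.79% were called in one direction. Clec7a (Dectin-1), which binds fungal glucans, measured 15.5 ± 7.37, 20.1 ± 4.23 and 11.1 ± 3.95 CPM. Its Normal libraries overlapped both other groups, while NMO (15.6 to 23.9) and NMO+CL (6.57 to 13.8) did not overlap, and it was not called. Mrc2 and Cd72 of this list were also lower in NMO+CL than in NMO without overlap, as were 9.22% of all tested genes. Medians of this list were 0.15, 0.13 and 0.01.

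NF-kB genes and the cytokines made downstream of Card9 formed a list of 19, of which 15 were tested. In NMO against Normal, 1 rose, Il1b, by 2.24 on the log2 scale (edgeR adjusted p = 0.00372), at 14.2 ± 5.10 CPM in Normal and 67.1 ± 23.4 in NMO. Between NMO and NMO+CL, 0 rose and 1 fell, Nlrp3, a sensor of the inflammasome, by 1.23 (adjusted p = 0.0484). Compared with Normal, 3 rose in NMO+CL, namely Il1b by 2.29 (adjusted p = 0.000293), Tnf by 1.37 (adjusted p = 0.0219) and Nfkbia, the NF-kB inhibitor, by 0.82 (adjusted p = 0.00632). Nlrp3 fell there by 1.02 (adjusted p = 0.0399). Its levels were 62.8 ± 27.0, 72.3 ± 14.99 and 30.9 ± 3.13 CPM (mean ± SD, n = 3). The Nlrp3 calls were the least stable, since against NMO 12 of 17 alternatives lost the call and against Normal 10 of 17, with adjusted p up to 0.155 and 0.264 (without NMO replicate 2 and without Normal replicate 1). The Tnf call was lost when replicate 2 (adjusted p = 0.0791) or 3 (0.105) of Normal or replicate 2 of NMO+CL (0.136) was omitted. Shares of all tested genes called were 0.472% (higher in NMO against Normal), 1.07% (lower in NMO+CL against NMO), and 4.79% higher and 4.43% lower between NMO+CL and Normal. List medians were 0.27, -0.07 and 0.30 on the log2 scale.

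Of 7 myeloid transcription factors, which include the C/EBP factors and PU.1, 6 were tested. Neither NMO compared with Normal nor NMO+CL compared with NMO gave a call by edgeR (0 and 0, with 1 and 2 genes at an unadjusted p under 0.05, beside 9.51% and 12.4% of all tested genes). DESeq2 called Cebpa lower in the first and Runx1 higher in the second, and limma-voom called 0. NMO+CL compared with Normal gave 1 that rose and 1 that fell, beside 4.79% and 4.43% of all tested genes. Cebpa, which encodes C/EBP alpha, measured 185 ± 28.2, 105 ± 11.7 and 72.2 ± 11.4 CPM (mean ± SD, n = 3) and had a log2 fold change of -1.36 (adjusted p = 0.000571). Runx1 rose by 0.63 (adjusted p = 0.0480), and 8 of 17 alternatives lost the call, with adjusted p up to 0.173 without Normal replicate 3. Cebpb measured 26.7 ± 6.46, 43.8 ± 31.3 and 48.3 ± 16.5 CPM and Spi1, which encodes PU.1, 222 ± 46.8, 194 ± 65.0 and 211 ± 71.2, and neither was called. Medians of the list were 0.11, 0.06 and 0.25.

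**Figure D5:**
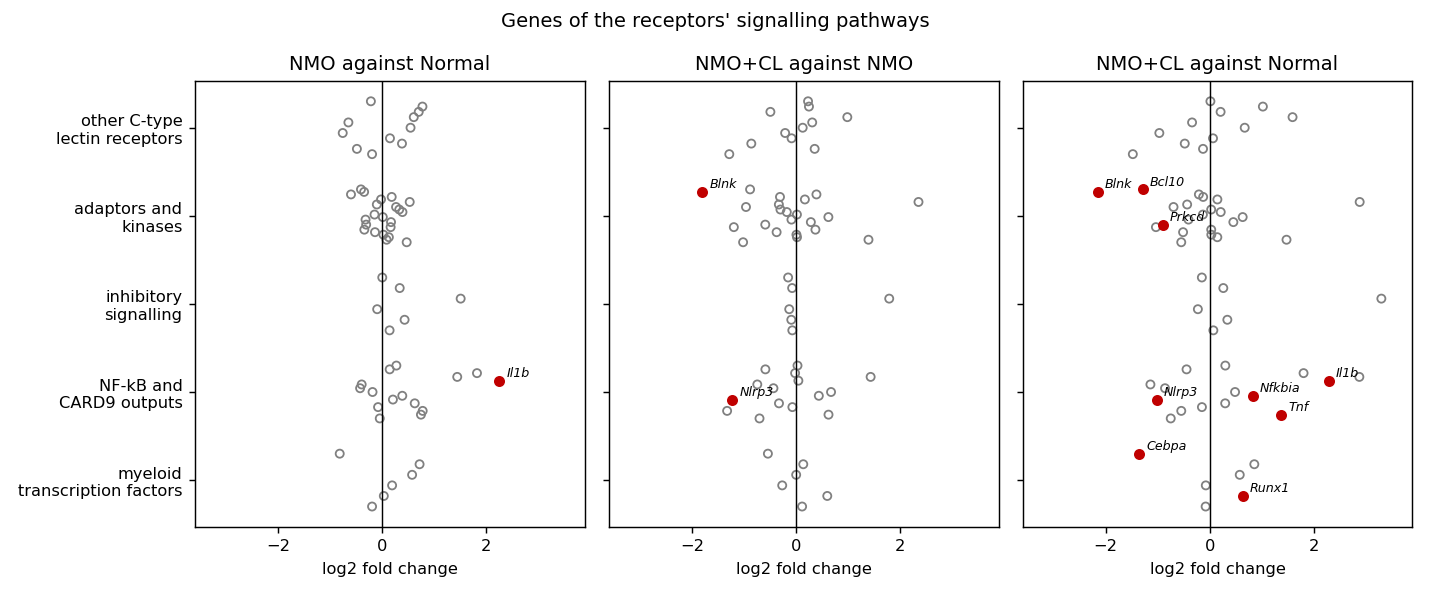
Log2 fold change (horizontal axes) of the tested genes of the 5 pathway lists (vertical positions within a list are alphabetical) in the 3 comparisons. Filled, named points were called at an adjusted p under 0.05 in edgeR and open points were not, with 1 call in the left panel, 2 in the middle and 9 in the right panel.

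The groups were apart for 4 of the 8 receptors in NMO against Normal (Clec4a1, Clec4n and Clec4d higher, Clec4a2 lower), for 1 between NMO+CL and NMO (Clec4a2, lower) and for 4 between NMO+CL and Normal (Clec4a1, Clec4e and Clec5a higher, Clec4a2 lower). Among all tested genes, 9.21% were apart upward and 8.20% downward between NMO and Normal, 7.89% and 9.22% between NMO+CL and NMO, and 13.8% and 14.9% between NMO+CL and Normal. Clec4n and Clec4d passed the filter through the injected libraries, and Clec4e is not among the tested genes. Clec4a1 and Clec4a2 were thus the receptors for which both injected groups were apart from Normal. These comparisons share the Normal libraries and are not independent of each other.

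The genes whose level followed each receptor most closely over the 9 libraries were sought among the 8841 genes averaging 50 or more counts, by Pearson correlation of log2 CPM. The points share libraries and depth, and with so many genes searched the values are descriptions. For Clec4a1 they were 2010107E04Rik (r = 0.98), the kinase gene Lyn (0.95) and the ribosomal protein gene Rpl18 (0.92). Lyn measured 794 ± 75.4, 1039 ± 112 and 919 ± 48.9 CPM in the 3 groups (mean ± SD, n = 3) and was not called in any comparison. For Clec4a2 they were the histone gene H3f3b (0.94), Fam103a1 (0.93) and Setd1b (0.93), and for Clec4a3 Tcp11l2 (0.96), Dync1i2 (0.96) and Ceacam2 (0.94). For Clec5a they were Pomt2 (0.97), Ift88 (0.94) and Msto1 (0.94). Clec4n was followed by Actl6a, Etfa and Mrps5 (0.92 to 0.93), Clec4d by Gps1, Srrt and Yars (0.96 to 0.97) and Clec12a by Cep170, Gpr183 and Mier3 (0.92 to 0.96), where a few libraries with reads set the pattern.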

How the data were processed

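RNA of 9 libraries of sorted microglia was analysed. The deposited values are read counts per gene, not normalized. The authors made 3′ QuantSeq libraries, read single 75-base ends, aligned them with Bowtie2 and counted with bedtools. The build is mm10 per the labels, and the annotation and the use of strand were not given in the sources used here. No molecular identifiers entered the counts, as far as the sources used here say. Groups were taken from the labels, replicates as separate pools. The 35 symbols listed more than once were summed.

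Counts were analysed in R 4.3.3 with edgeR 4.0.16. Genes were kept by filterByExpr (minimum count 10, minimum total 15), which left 12292. Library sizes were scaled by TMM, and a quasi-likelihood model with 1 coefficient for each group was fitted over the 9 libraries. F-tests were two-sided, with Benjamini-Hochberg adjustment over all tested genes and calls at 0.05. The common biological coefficient of variation was 0.519. CPM values use TMM-scaled library sizes. The model was tested on simulated data. Alternatives used RLE or unscaled library sizes, Rn45s left out, no filter, DESeq2 1.42.0, limma-voom (limma 3.58.1), only the groups compared, a replicate block, the thresholds of the study and each library left out.

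Named genes were all 8 receptors, pathway genes called in a comparison (at most 4 per list) with 9 named in the rule itself, defining markers and the 3 genes most like each tested receptor. Receptors, lists and rules were chosen with earlier results of these data known. An item of the adaptor and kinase list is not reported here. Protein sequence features were planned and were not analysed here. Promoter windows come from RefSeq (GRCm38.p6) and positions from GENCODE M21.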

Additional observations from a re-analysis of the deposited data

How the results depend on the processing

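Of 357 receptor fold changes recomputed under alternatives, 342 kept direction and side of the threshold. Clec4d in NMO+CL against Normal passed the threshold in 3 of 17: without the filter (log2 fold change 7.84, adjusted p 0.0360), with DESeq2 (7.19, 0.00526) and without NMO+CL replicate 1 (8.42, 0.0341). In the other 14 it was not called, with adjusted p up to 0.310. The count of receptors called higher there was 1 without the filter, 1 with DESeq2 and 1 at 1.5-fold with an unadjusted p under 0.05, and ranged from 0 to 1 when single libraries were left out. At that last threshold it was 1 in NMO against Normal too. The other counts of receptors called stayed at 0 when single libraries were left out. Direction reversed in 12 cases. In NMO against Normal, Clec12a was -0.056 with the replicate block, -0.39 without Normal replicate 2 and -2.14 without NMO replicate 1 (leaving out single libraries gave -2.14 to 0.84). In NMO+CL against NMO, Clec4d was -0.26 with limma-voom and -0.013 without NMO+CL replicate 3 (range -0.013 to 2.10), Clec4a3 was 0.035 without NMO+CL replicate 1 (range -0.34 to 0.035) and Clec5a was -0.022 without NMO replicate 2 (range -0.022 to 0.15). Clec4n was 0.16 and 0.24 there without NMO replicate 1 or 2, and 0.47 without NMO+CL replicate 2 or 3 (range -6.43 to 0.47). In NMO+CL against Normal, Clec4n was -1.97 without NMO+CL replicate 1 (range -1.97 to 6.35). The cause was not tested, beyond the loss of the library named. Among pathway genes, DESeq2 called 1 lower in NMO against Normal and 1 higher in NMO+CL against NMO, where edgeR called 0, and RLE scaling and limma-voom called 1 lower in NMO+CL against NMO in place of 2. Same-numbered libraries did not deviate together (correlations from -0.0148 to 0.0302 over 9 pairs), so the replicate block, under which 0 receptors were called in any comparison, gives no paired result. Scaling by library totals alone moved the median of all genes by 0.107 on the log2 scale in NMO against Normal, and no receptor changed direction under it. Relative to TMM, the other scalings moved it by less than 0.1. Clec4n, Clec4d, Clec4e and Clec12a had 0 to 61 counts per library, and the relative spread between libraries beyond counting error was 1.27 for Clec4d, 1.47 for Clec12a and 1.495 for Clec4n. Leaving out Rn45s raised the CPM of every detected receptor, Clec5a to means of 179.8, 226.6 and 243 in the 3 groups, and no receptor fold change under it changed direction or side of the threshold.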
